A study of Mus musculus with 4 samples.

Results

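The mitochondrial carriers are the SLC25 family, membrane proteins that exchange nucleotides, phosphate, organic acids, amino acids, cofactors and metal ions between the mitochondrial matrix and the rest of the cell. The uncoupling proteins Ucp1, Ucp2 and Ucp3 belong to the same family. Genes were taken as members by symbol alone, Slc25a followed by a number or one of the 3 Ucp names, and 47 of 26068 entries that name a gene met this rule. The rule itself uses no measured value, but it was chosen with earlier results of these data known. Of the 47 members, 36 had a mean of at least 0 on the log2 RPKM scale (reads scaled to transcript length and library depth) over the 4 libraries and 11 lay below it.

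RNA came from whole testes of male B6D2F1 mice aged 24 days, when the first wave of spermatogenesis has reached spermatids. The groups were 2 wild type libraries and 2 libraries from mice homozygous for the Adad2 knockout, a gene expressed in germ cells whose product binds double-stranded RNA. The title names the making of piRNAs and spermiogenesis as the subject. The labels do not say whether the libraries came from separate animals, so the p-values reflect the spread among these 4 libraries alone, and that spread may be technical. The way the knockout allele was made is not given in the sources used here. Adad2 RNA itself was at 4.66 and 4.47 log2 RPKM in wild type and, lower but still present, at 3.73 and 3.30 in the knockout. Depth was estimated at 30200000 and 36900000 reads in wild type replicates 1 and 2 and at 33000000 and 29400000 reads in knockout replicates 1 and 2.

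As background, most carriers sit in the inner mitochondrial membrane and share a fold built from a repeated pair of membrane helices. They have no cleaved targeting signal in most cases and reach the membrane through the TOM and TIM22 import complexes. Testis has a germ cell form of the ADP/ATP carrier, Slc25a31, beside the somatic forms Slc25a4 and Slc25a5. Slc25a5 lies on the X chromosome, which is silenced in male meiosis, and mice without Slc25a31 fail in meiosis. The ATP-Mg/phosphate carriers shift adenine nucleotides in and out of the matrix in exchange for phosphate, and most of them carry a calcium-binding extension that the short form Slc25a41 lacks.

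Related carriers could in principle share reads, so coding sequences were compared in the Gencode M21 transcripts. The longest run of identical bases in the coding sequences of Slc25a41 and its neighbour Slc25a23 was 20 bases, and that of Slc25a4 and Slc25a5 was also 20 bases. The windows are shown because they hold the longest exact match between each pair, with the shared run in capitals and 24 bases on each side in lower case.
Slc25a41: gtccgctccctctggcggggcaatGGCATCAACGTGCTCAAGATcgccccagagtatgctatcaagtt
Slc25a23: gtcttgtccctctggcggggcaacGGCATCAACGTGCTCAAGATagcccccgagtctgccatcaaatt
Slc25a4: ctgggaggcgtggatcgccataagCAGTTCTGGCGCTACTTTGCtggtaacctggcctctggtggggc
Slc25a5: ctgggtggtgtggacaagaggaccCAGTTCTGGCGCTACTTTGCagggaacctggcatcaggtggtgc
These are coding bases 244 to 311 of Slc25a41, 709 to 776 of Slc25a23, and 298 to 365 of Slc25a4 and of Slc25a5, counted from the A of the start codon. Over aligned positions the coding sequences of Slc25a41 and Slc25a23 were 68.0% identical and those of Slc25a4 and Slc25a5 77.4%. Slc25a41 has the shorter coding sequence, 936 bases against 1401 in Slc25a23, 1425 in Slc25a24 and 1542 in Slc25a25. For 36 of the 47 members no 50-base word of the coding sequence occurred in a transcript of another gene, and Slc25a41, Slc25a1, Slc25a4, Slc25a31 and Ucp2 were among them. Slc25a5 shared 63.6% of its words with Slc25a5-ps and predicted genes and Slc25a36 69.3% with a predicted gene, so their levels are uncertain. The same limit holds in part for Slc25a40 (29.3%) and Slc25a37 (16.8%). Slc25a33 (25.5%), Slc25a46 (19.4%) and Slc25a25 (14.0%) shared words only with Gm13068, B930094E09Rik and Naif1, which overlap them on the opposite strand. Words were sought on both strands, so for these the limit depends on the use of strand in counting. The other members concerned shared under 10%.

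Slc25a41 was nearly lost in the knockout. In wild type its log2 RPKM was 2.15 for replicate 1 and 1.49 for replicate 2, and in the knockout it was -2.87 and -3.71. The groups lay far apart, and the gap between them was larger than the spread within either group. In reads, this was 178 and 138 in wild type against 6 and 3 in the knockout. These came out whole within 0.02 of a read when the value was multiplied by the gene's exon length and the depth. The group values were 1.82 ± 0.46 and -3.29 ± 0.59 log2 RPKM (mean ± SD, n = 2 each). This was 34.4-fold lower in the knockout. From the read totals of 316 and 9, scaled to depth, the ratio was 32.6 with an exact 95% interval of 17.0 to 72.0, which covers counting error only.

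Slc25a41 did not enter the test with the filter, because its low knockout values drew its mean over the 4 libraries to -0.74. In the test of all 26068 entries without a filter, Slc25a41 changed by -5.11 (SE 0.40, limma adjusted p = 0.00731, 95% confidence interval -6.13 to -4.09). That test called 4.51% of all entries, 4.14% lower and 0.372% higher. This was the 41st largest decrease among the 26068 entries. Slc25a41 was singled out after its values were seen, since the rule for named genes covered members past the filter. The call was lost without wild type replicate 1 (limma adjusted p = 0.0931) or wild type replicate 2 (adjusted p = 0.0676), with changes of -4.78 and -5.43.

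**Figure D1:**
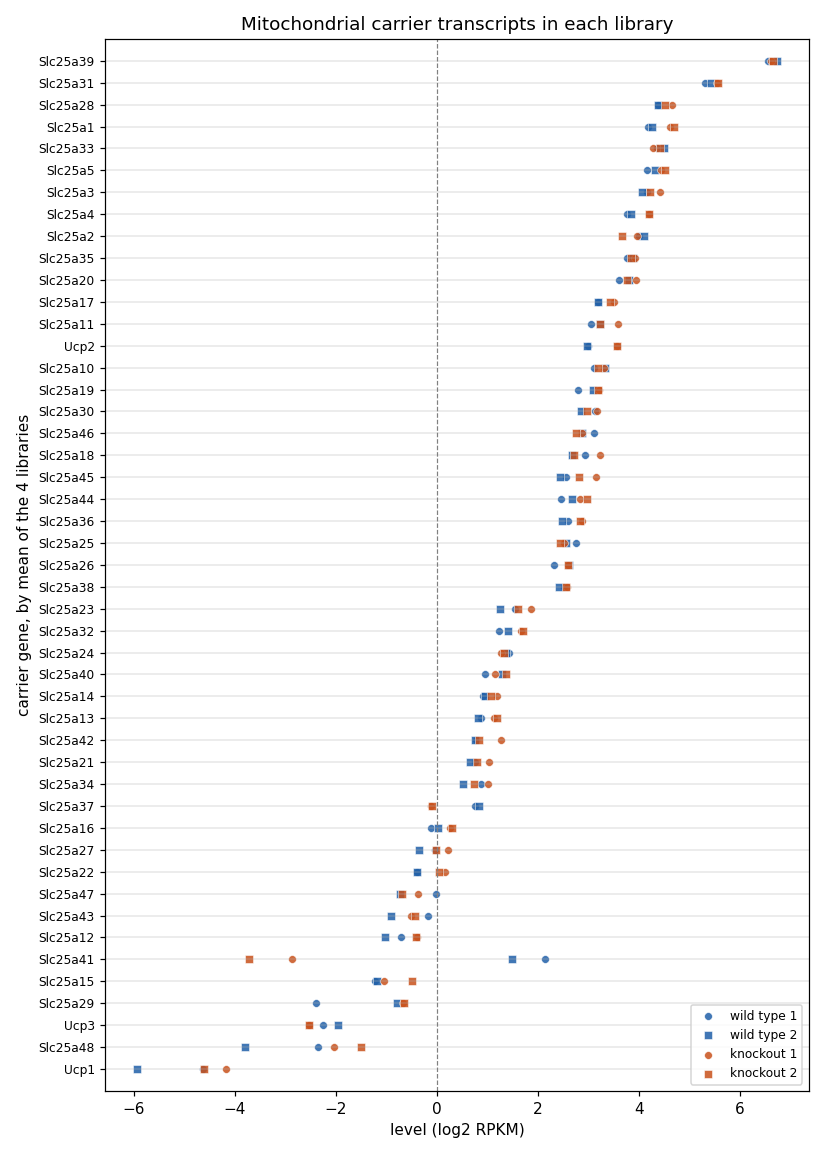
Level in log2 RPKM (x axis) of each of the 47 carrier genes (y axis, ordered by mean) in each of the 4 libraries, with wild type in blue, knockout in orange, replicate 1 as circles and replicate 2 as squares; the dashed line marks 0. Slc25a39 is highest at a mean of 6.63 and Ucp1 lowest at -4.83, and Slc25a41 is the row in which blue and orange points stand widest apart.

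The gene lies on the minus strand of chromosome 17 from 57172196 to 57181077 in mm9 (ENSMUSG00000011486), and no other entry of the table overlaps it. The nearest entry, Gm17168, starts after a gap of 120 bases on the plus strand, and its change was 0.35 (limma adjusted p = 0.316 without a filter). Slc25a23, a relative, lies 2056 bases away on the same strand as Slc25a41. This calcium-regulated ATP-Mg/phosphate carrier had levels of 1.54 and 1.24 log2 RPKM in wild type and of 1.87 and 1.61 in the knockout. Its knockout values lay above its wild type values, but the change of 0.35 (95% confidence interval -0.03 to 0.73) was not past the threshold (limma adjusted p = 0.214). Part of Slc25a23 overlaps Gm17168 and Crb3 on the plus strand, and the use of strand in counting is not given in the sources used here. On the other side, 1265 bases from Slc25a41, Khsrp was at 4.06 and 4.21 in wild type and 4.28 and 4.42 in the knockout. None of the 5 entries on either side of Slc25a41 was past the threshold without a filter, the smallest limma adjusted p being 0.0797 for Tubb4, with a change of -1.85. Tubb4 was scarce, at -3.75 and -4.78 log2 RPKM in wild type and -6.20 and -6.04 in the knockout. Crb3 and Dennd1c, on the same side and also scarce, had changes of -1.46 and -1.06. Pspn, scarce on the other side, had a change of 1.60.

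**Figure D2:**
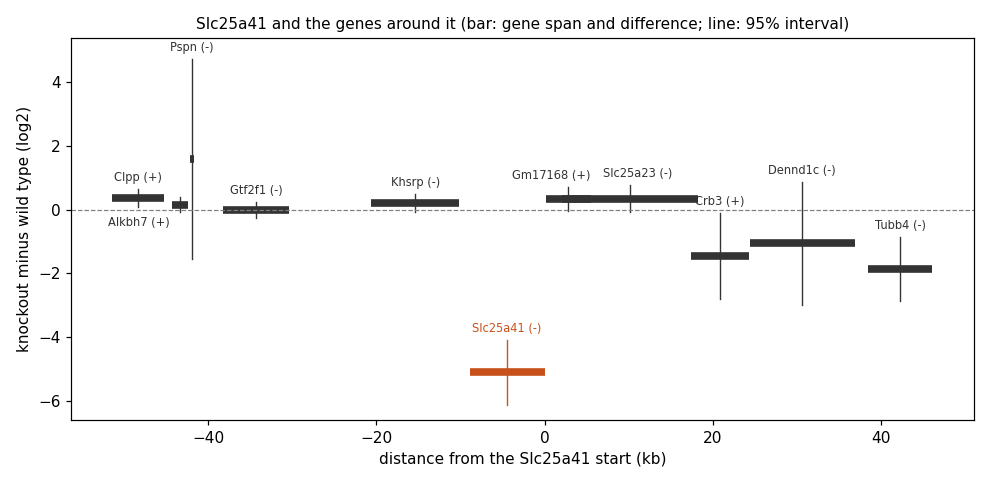
Difference between knockout and wild type (log2, y axis, test without a filter) for Slc25a41 and the 5 entries on either side, against distance from the start of Slc25a41 in kb (x axis); thick bars give each gene's span and thin lines the 95% confidence interval, with the strand in brackets. Slc25a41 sits at -5.11, while Khsrp on one side and Gm17168 and Slc25a23 on the other sit at 0.21, 0.35 and 0.35.

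None of the 3 other ATP-Mg/phosphate carriers passed the threshold. Slc25a25, the most abundant of them, was at 2.75 and 2.56 log2 RPKM in wild type and 2.51 and 2.43 in the knockout. Slc25a24 was at 1.43 and 1.37 against 1.27 and 1.33. Their changes of -0.18 and -0.10 had limma adjusted p-values of 0.318 and 0.653. In RPKM, which is per length, Slc25a41 made up 26.5% and 20.6% of the sum of these 4 carriers in wild type replicates 1 and 2. In knockout replicates 1 and 2 it made up 1.15% and 0.694%. The summed level of the 4 was 16.7 and 13.7 RPKM in wild type and 11.9 and 11.0 RPKM in the knockout. These shares are descriptions, because 2 libraries against 2 cannot give an exact two-sided permutation p below 0.333.

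Markers of spermatids, the haploid cells, had changes from -0.22 to -5.39. All 12 round and elongating spermatid markers had a change below 0, and their median change was -2.55. Of the 12, 9 were past the threshold, beside 7.15% of all genes called lower. Their summed level was 1013 and 963 RPKM in the wild type libraries and 165 and 113 RPKM in the knockout libraries. None was at the floor in any library, the lowest value being -0.01 log2 RPKM for Tssk6, a testis-specific kinase, in knockout replicate 2. Tnp2, a transition protein of sperm chromatin, had the most negative change, -5.39, and Spaca7 a change of -1.80, but neither passed the threshold (adjusted p = 0.0761 and 0.0779). Without a filter, as for Slc25a41, 10 of the 12 were called lower, Tnp2 among them, beside 4.14% of all entries. Acr, the acrosomal protease acrosin, was not past the threshold in either test, at 5.73 and 5.87 in wild type and 5.62 and 5.54 in the knockout. In whole testis, fewer cells of a type and less RNA per cell cannot be told apart, and the part of spermatid number in the Slc25a41 value was not tested. Of 9 pachytene spermatocyte markers 8 had a change above 0, and the median was 0.13. The germ cell glycolytic enzyme Pgk2 was the 1 called lower, beside 7.15% of all genes, and 0 were called higher. In limma 2 were higher at an unadjusted p under 0.05, beside 2097 of all 13414 genes. The summed level of the 9 was 1299 and 1484 RPKM in wild type and 1445 and 1430 RPKM in the knockout.

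**Figure D3:**
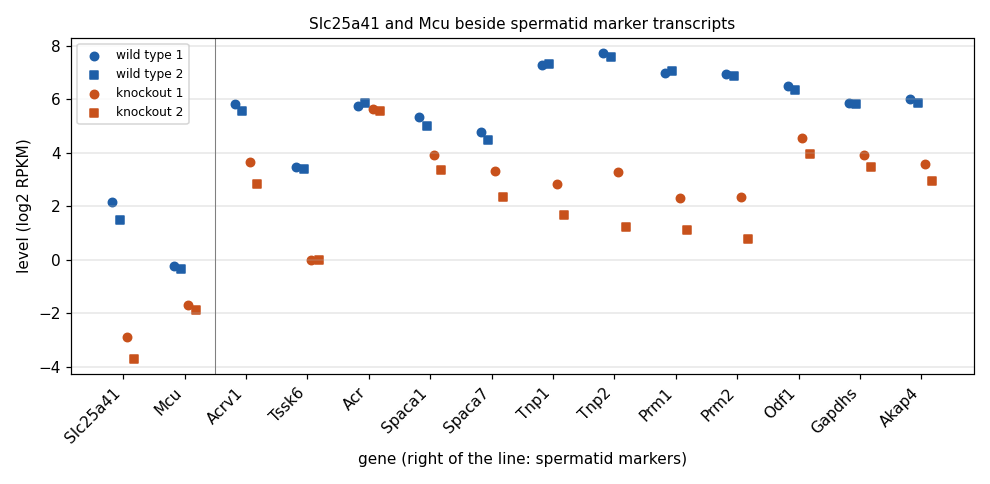
Level in log2 RPKM (y axis) of Slc25a41, Mcu and the 12 spermatid markers (x axis) in each library, with wild type in blue, knockout in orange, replicate 1 as circles and replicate 2 as squares. Slc25a41 lies between 1.49 and 2.15 in wild type and between -3.71 and -2.87 in the knockout, and Acr is the marker whose groups lie closest.

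With the filter, 36 members were tested, and 1 was called lower and 3 higher (limma, Benjamini-Hochberg adjusted p under 0.05). The filter used the mean over both groups, so this count depends on it. Slc25a41 was left out through its low knockout values, and Slc25a37, the 1 called lower, passed only through its wild type values. Over all 13414 genes the same test called 8.36%, 7.15% lower and 1.22% higher. In limma 1519 of these genes were lower and 2097 higher at an unadjusted p under 0.05. Among the 36 members these counts were 1 and 8. The all-gene counts are the background for each unadjusted count given below. The change was positive for 29 members, with a median of 0.20, beside a median of 0.14 and 71.8% above 0 over all genes tested. In 21 members the knockout libraries both lay above the wild type libraries, and in 5 both lay below. Over all genes tested these patterns made up 46.4% and 16.8%. Changes of the tested members ran from -0.90 for Slc25a37 to 0.59 for Ucp2. At the filter itself, Slc25a16 lay just inside with a mean of 0.12 and Slc25a27 just outside with a mean of -0.04.

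**Figure D4:**
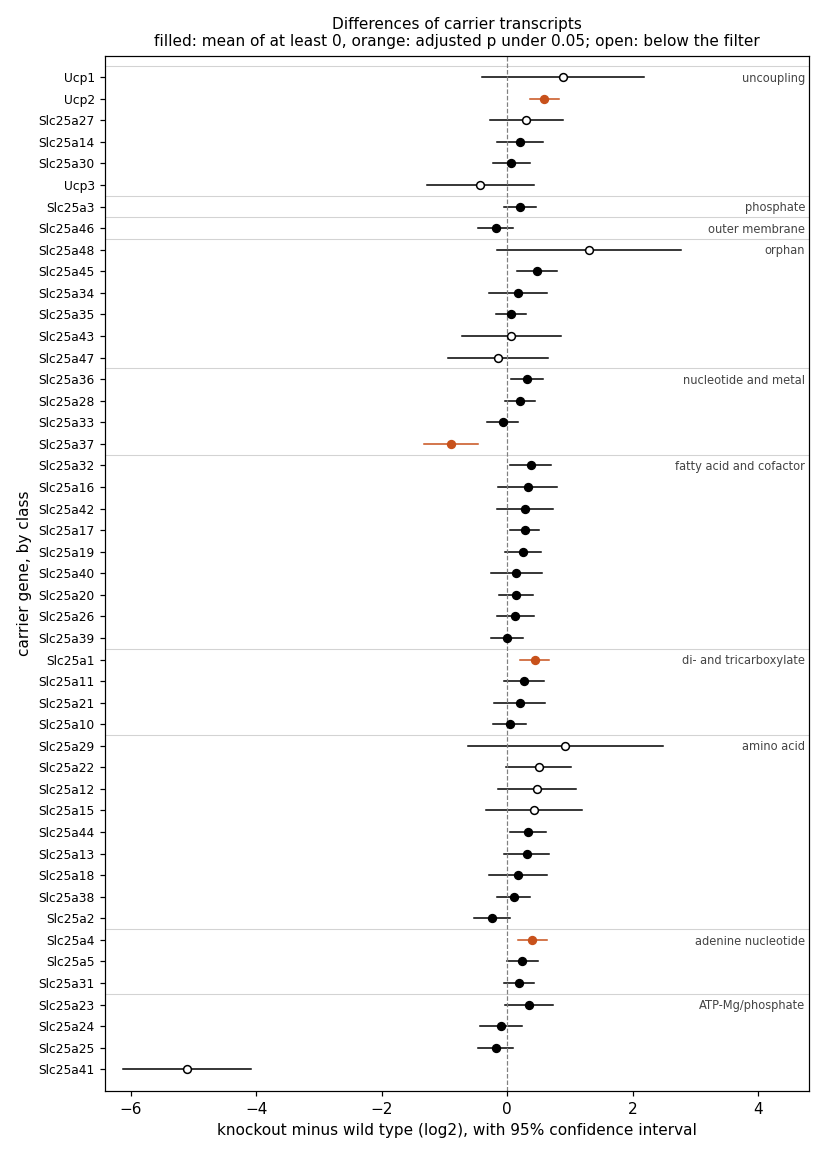
Difference between knockout and wild type (log2, x axis) with its 95% confidence interval for the 47 carrier genes (y axis), grouped by class; filled points are members with a mean of at least 0, orange where the adjusted p was under 0.05, and open points are members below the filter, from the test without a filter. Slc25a41 lies at -5.11, and the orange points are Slc25a37 to the left of 0 and Slc25a1, Slc25a4 and Ucp2 to the right.

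Ucp2, an uncoupling protein found in many tissues, rose in the knockout. Its level was 2.98 and 2.97 log2 RPKM in wild type against 3.57 and 3.56 in the knockout. Replicates lay close together and the groups did not overlap. The group values were 2.98 ± 0.008 and 3.57 ± 0.005 (SD, n = 2 each), a 1.51-fold higher level (change 0.59, SE 0.10, 95% confidence interval 0.37 to 0.82, limma adjusted p = 0.0073). Ucp2 was also called without a filter (adjusted p = 0.0308). Beside Slc25a41 it was the 1 other member called there. The call was lost when wild type replicate 1 or 2 was left out, with changes of 0.60 and 0.59. The loss without wild type replicate 1 was shared by all genes called and is not particular to Ucp2. Sertoli cell markers had a change above 0 in 9 of 9 tested, beside 71.8% of all genes, with a median of 0.29. In limma 0 were past the threshold and 7 were higher at an unadjusted p under 0.05, beside 2097 of all 13414 genes. Their summed level was 494 and 462 RPKM in wild type and 582 and 588 RPKM in the knockout. The change was also above 0 in 7 of 7 spermatogonia, 6 of 7 Leydig cell and 8 of 9 pachytene spermatocyte markers tested. The part of these cell types in the values of Ucp2, Slc25a1 and Slc25a4 was not tested.

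Ucp3, 6904 bases from Ucp2 on chromosome 7 and on the same strand, was scarce and its change differed in sign. It was at -2.24 and -1.95 log2 RPKM in wild type and at -2.52 and -2.53 in the knockout, which is 16 to 30 reads. Without a filter its change of -0.43 had a limma adjusted p = 0.582. Ucp1, the proton channel of brown fat, held between 0.995 and 2.99 estimated reads per library, and no fold is given for it. The other carriers grouped with the uncoupling proteins, Slc25a14, Slc25a27 and Slc25a30, had changes of 0.20, 0.30 and 0.07. None of the 3 was past the threshold.

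Slc25a1, the citrate carrier that feeds acetyl units to the cytosol, rose in the knockout. It was at 4.18 and 4.27 log2 RPKM in wild type and at 4.62 and 4.70 in the knockout, with no overlap (1.35-fold, change 0.44, SE 0.10, limma adjusted p = 0.0362). The call was lost without a filter (limma adjusted p = 0.0853) and without trend and robust estimation (0.0856). It was also lost without wild type replicate 1, as for all genes called, wild type replicate 2 or knockout replicate 2. The changes there were 0.40, 0.48 and 0.39. The other di- and tricarboxylate carriers were not called. Slc25a11, the oxoglutarate carrier of the malate-aspartate shuttle, was at 3.05 and 3.23 in wild type and 3.59 and 3.23 in the knockout. Slc25a10, the dicarboxylate carrier, had a change of 0.04 and Slc25a21, the oxodicarboxylate carrier, of 0.20.

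Among the ADP/ATP carriers Slc25a4, the heart and muscle form, rose in the knockout. Its values were 3.76 and 3.85 log2 RPKM in wild type and 4.20 and 4.21 in the knockout (1.32-fold, change 0.40, SE 0.10, limma adjusted p = 0.0472). This call lay close to the threshold. It was lost without a filter (limma adjusted p = 0.102) and without trend and robust estimation (0.101). It was also lost when any 1 library was left out, with changes from 0.36 to 0.45. Without wild type replicate 1 this loss was shared by all genes called. Slc25a31, the germ cell form and the second most abundant carrier, was at 5.32 and 5.42 in wild type and 5.55 and 5.57 in the knockout. Slc25a5, the X-linked somatic form, was at 4.16 and 4.31 against 4.44 and 4.51. In each of these the knockout libraries lay above the wild type libraries, but the changes of 0.19 and 0.24 were not past the threshold (adjusted p = 0.262 and 0.193).

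The shares of the 3 forms in their sum moved by a few percentage points. Slc25a31 made up 55.9% and 55.6% of their summed RPKM in wild type and 53.8% and 53.5% in the knockout. Slc25a4 made up 19.0% and 18.6% in wild type and 21.2% and 20.8% in the knockout. Slc25a5 made up between 25% and 25.8% in all 4 libraries, subject to the reads it shares with its pseudogene and predicted genes. Slc25a3, which imports the phosphate for ATP synthesis, was at 4.16 and 4.06 log2 RPKM in wild type and 4.41 and 4.22 in the knockout, a change of 0.21 (adjusted p = 0.255).

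**Figure D5:**
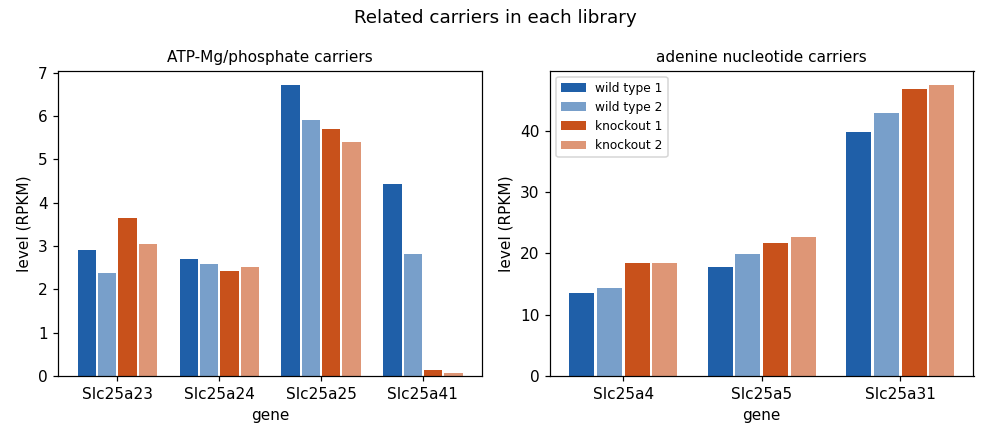
Level in RPKM on a linear scale (y axis, from 0) of the 4 ATP-Mg/phosphate carriers (left) and the 3 adenine nucleotide carriers (right), with 1 bar per library, wild type in blue, knockout in orange and replicate 2 in the lighter shade. Slc25a41 is near 0 in both knockout libraries, at 0.137 and 0.0765 RPKM, while every adenine nucleotide carrier is present in all 4 libraries and Slc25a31 is the highest.

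Slc25a37, mitoferrin 1, which imports iron and is best known from red blood cell precursors, was the 1 member that fell in the test with the filter. It was at 0.75 and 0.84 log2 RPKM in wild type and at -0.11 and -0.09 in the knockout. The replicates of each group lay within 0.1 of each other and the groups did not overlap. The group values were 0.80 ± 0.06 and -0.10 ± 0.01 (SD, n = 2 each), a 1.86-fold lower level (change -0.90, SE 0.19, 95% confidence interval -1.33 to -0.46, limma adjusted p = 0.0216). The call was lost without a filter (limma adjusted p = 0.0599). It was also lost without wild type replicate 1, as for all genes called, or 2, with changes of -0.94 and -0.85. Slc25a37 passed the filter only through its wild type values, since both knockout values lay below 0. Slc25a37 lies on the minus strand of chromosome 14 from 69859908 to 69903160 in mm9 (ENSMUSG00000034248).

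Hbb-b1, a haemoglobin chain, was at 4.93 and 3.87 log2 RPKM in wild type and 3.41 and 3.79 in the knockout, highest in wild type replicate 1. Slc25a37 was at 0.75 in that library and at 0.84 in wild type replicate 2. The 7 macrophage and blood markers summed to 89.1 and 45.8 RPKM in wild type and 36.7 and 45.5 RPKM in the knockout, and 0 of the 6 tested were called in limma, with 0 at an unadjusted p under 0.05. The part of blood, or of the spermatids described above, in the Slc25a37 value was not tested. The other iron carrier, Slc25a28 or mitoferrin 2, was at 4.38 and 4.38 in wild type and 4.65 and 4.51 in the knockout (change 0.20, adjusted p = 0.236). It made up 92.5% and 92.1% of the summed mitoferrin RPKM in wild type and 96.4% and 96.1% in the knockout.

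The highest carrier was Slc25a39, which imports glutathione into mitochondria. It stood at 93.8 and 106 RPKM in wild type and at 98.0 and 100.5 RPKM in the knockout. The groups overlapped, and the log2 change of -0.004 (adjusted p = 0.983) had a 95% confidence interval of -0.26 to 0.26. This 1 gene gave 20.7% to 24.2% of the summed RPKM of all 47 members, a sum of 416 and 437 RPKM in wild type and 473 and 459 RPKM in the knockout. Slc25a31 came second. After it, Slc25a28, Slc25a1, Slc25a33, Slc25a5 and Slc25a3 followed with means from 4.22 to 4.48 log2 RPKM, and the values of neighbours in this order overlapped between libraries. Slc25a33, a pyrimidine nucleotide carrier, was at 4.36 and 4.49 in wild type and 4.29 and 4.41 in the knockout (adjusted p = 0.651).

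The 9 fatty acid and cofactor carriers were all tested and 0 were called in limma, beside the 8.36% called over all genes. Of the 9, 2 had an unadjusted p under 0.05 in limma. Their median change was 0.25, beside 0.14 over all genes tested. Slc25a20, which brings acylcarnitines in for fatty acid oxidation, was at 3.61 and 3.81 log2 RPKM in wild type and 3.94 and 3.76 in the knockout. The largest change in this class was that of Slc25a32, the folate and FAD carrier, at 1.22 and 1.41 in wild type and 1.67 and 1.71 in the knockout. Its change was 0.37 (95% confidence interval 0.04 to 0.70, limma adjusted p = 0.152). Slc25a17, the cofactor carrier of peroxisomes, had knockout values of 3.50 and 3.43 above wild type values of 3.18 and 3.19 (adjusted p = 0.131).

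Of the 9 amino acid carriers 5 were tested and 0 were called in limma, beside the 8.36% called over all genes. The 1 with an unadjusted p under 0.05 was Slc25a44, a carrier of branched-chain amino acids. It was at 2.47 and 2.67 log2 RPKM in wild type and 2.83 and 2.97 in the knockout. Its change of 0.33 was not past the threshold (95% confidence interval 0.05 to 0.61, limma adjusted p = 0.141). Slc25a2, an ornithine carrier encoded in 1 exon, was the most abundant of the class. It had values of 3.99 and 4.10 in wild type and 3.96 and 3.67 in the knockout, a change of -0.24 (adjusted p = 0.247). The aspartate/glutamate carriers Slc25a12 and Slc25a13 and the glutamate carriers Slc25a22 and Slc25a18 had changes of 0.47, 0.31, 0.50 and 0.18, and none was past the threshold. Slc25a12 and Slc25a22 lay below the filter.

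Among carriers grouped without a substrate, Slc25a45 had the largest change of the tested members that were not called. It was at 2.56 and 2.44 log2 RPKM in wild type and 3.15 and 2.80 in the knockout (change 0.47, 95% confidence interval 0.15 to 0.79, limma adjusted p = 0.083). The groups did not overlap. It passed the threshold with the filter at a mean of 2 (adjusted p = 0.0487) and without knockout replicate 2 (adjusted p = 0.001). The change was 0.30 without knockout replicate 1 and 0.65 without knockout replicate 2. Slc25a46, an outer membrane protein of mitochondrial dynamics, was at 3.10 and 2.88 in wild type and 2.87 and 2.75 in the knockout (adjusted p = 0.327).

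The other members below the filter were scarce and imprecise. Slc25a48 held 20 and 9 reads in wild type and 27 and 35 in the knockout, with a change of 1.30 (95% confidence interval -0.17 to 2.76, limma adjusted p = 0.335 without a filter). Slc25a29, a basic amino acid carrier, held 15 reads in wild type replicate 1 and 56 in wild type replicate 2, against 54 and 49 in the knockout. The 2 wild type libraries thus lay farther apart than the group means. Slc25a15, Slc25a43 and Slc25a47 had changes of 0.43, 0.07 and -0.15, none past the threshold.

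Of the 12 genes of the machinery that inserts carriers into the membrane, all were tested and 0 passed the threshold in limma, beside the 8.36% called over all genes. At an unadjusted p under 0.05, 2 were higher, beside 2097 of all 13414 genes. All 12 had a change above 0, beside 71.8% of all genes, from 0.03 to 0.30, with a median of 0.14, the same as over all genes tested. Tomm22, a receptor of the outer membrane translocase, was at 6.51 and 6.61 log2 RPKM in wild type and 6.68 and 6.55 in the knockout. Timm8b, an intermembrane space chaperone, and Tomm70a had changes of 0.09 and 0.11, and Timm13, a relative of Timm8b, of 0.15. The summed level of the 12 was 239 and 269 RPKM in wild type and 274 and 270 RPKM in the knockout.

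Of 26 other mitochondrial transporters and channels 24 were in the table under the symbols used and 19 were tested. Of these 1 rose and 0 fell in limma, beside 1.22% and 7.15% of all genes. At an unadjusted p under 0.05 in limma, 6 were higher and 0 lower, beside 2097 and 1519 of all 13414 genes. The median change was 0.23, beside 0.14 over all genes tested. The gene that rose was Sfxn1, a serine transporter, at 1.52 and 1.52 log2 RPKM in wild type and 2.07 and 2.03 in the knockout (1.44-fold, adjusted p = 0.0401). It was not called without a filter (adjusted p = 0.0903). Vdac3, Letm2 and Vdac2, the most abundant of the rest, had changes of 0.10, -0.20 and -0.04. Mcu, the pore of the mitochondrial calcium uniporter, lay below the filter, with every library below 0, unlike Slc25a41. It held 177 and 201 reads in wild type and 70 and 55 in the knockout, at -0.24 and -0.35 against -1.71 and -1.89 log2 RPKM. Without a filter its change of -1.50 had a limma adjusted p = 0.043, which rose above the threshold after quantile normalization (0.0722), on the log2(RPKM + 1) scale (0.0516), without trend and robust estimation (0.0529) and without wild type replicate 1 (0.249) or 2 (0.178). Mcu was singled out after its values were seen.

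Of 7 germ cell forms of other mitochondrial and metabolic proteins tested, 0 were called in limma, beside the 8.36% called over all genes. The median change was 0.08, beside 0.14 over all genes tested. Tomm20l, a relative of an import receptor, had the 1 unadjusted p under 0.05, at 4.71 and 4.87 log2 RPKM in wild type and 4.59 and 4.21 in the knockout. Its groups did not overlap, and its change of -0.39 had an adjusted p = 0.139. Ldhc, the germ cell lactate dehydrogenase, was at 9.80 and 10.05 log2 RPKM in wild type and 9.98 and 9.81 in the knockout. Cox8c and Cox6b2, cytochrome oxidase subunits of testis, had changes of 0.11 and 0.01, and Cox7b2 of 0.12.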

How the data were processed

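RNA-seq libraries from whole testes were prepared with Illumina's TruSeq kit, per the labels' protocols. Software listed in the submitters' processing notes is bcl2fastq 2.17.1.14 and Bowtie2, with build mm9. For the counting tool, annotation and strand, the sources used here give nothing. The authors deposited log2 RPKM values for 26127 entries. Entries without a gene, 59 (0.226%), were dropped. Columns called control and null were matched to wild type and knockout by group and number. The deposited log2 mean and difference columns were not used.

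Depth was estimated from single-exon genes, where low values (up to 10 reads) were whole within 2% in 95.3% to 97.1% of cases and genes without reads carried 0.9 of a read. Reads per gene used Gencode M21 exon lengths, matched by identifier for 23618 entries, and were whole within 0.02 of a read in all libraries for 21 members. M21 is on another build, so only its lengths and transcript sequences were used.

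Genes with a mean of at least 0 (1 RPKM) entered limma 3.58.1 (R 4.3.3, statmod 1.5.0), with intensity trend and robust estimation, unpaired and two-sided, adjusted over all 13414 genes. No pseudocount was added. Intervals are 95% confidence intervals of that model, and counting intervals were exact (SciPy 1.17.1). Coding sequences were aligned with Biopython 1.88. The code was tested on simulated data. Named genes were members past the threshold, the 5 highest, Slc25a4, Slc25a5, Slc25a31, the Ucp genes and the 4 largest changes not called; in other lists, called genes and 3 abundant ones. Other genes named were chosen after their values were seen. Spermatogonia and Leydig cell markers had 0 calls in limma among 7 tested in each list (3 and 1 at an unadjusted p under 0.05, all higher). Members and lists were chosen with earlier results of these data known.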

Additional observations from a re-analysis of the deposited data

How the results depend on the processing

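With 4 libraries the calls rest on few values. The 1 lower carrier became 0 with the filter at a mean of 2, which drops Slc25a37, and 0 to 1 when a library was left out. The 3 higher carriers became 1 without a filter, 1 without trend and robust estimation, 8 with the replicate number as a block (where 1837 of all 13414 genes were higher, against 163 without it), and 0 to 3 when a library was left out. In limma without wild type replicate 1, 0 of 13414 genes were called, with 1277 lower and 1080 higher at an unadjusted p under 0.05; among carriers these numbers were 1 and 5, and 1 and 7 without wild type replicate 2. With the block, 1 gene of the import machinery and 6 other transporters were higher and 1 germ cell form was lower. Without a filter 1 other transporter, Mcu, was lower and 0 were higher, and 0 were higher with the filter at a mean of 2, which drops Sfxn1. Left-out libraries gave 0 to 2 higher transporters, 0 to 1 lower germ cell form and 0 calls in the import machinery. Slc25a45 (adjusted p = 0.000413), Slc25a44 (0.0224) and Slc25a32 (0.0437) were among the carriers called with the block. Same-numbered libraries deviated together (r = 0.33 across 13414 genes), but the labels give no pairing. The change of Slc25a39, not called, ranged from -0.089 to 0.081 when a library was left out. That of Slc25a41 ranged from -5.53 to -4.69 on leaving out a library and was -2.04 on the log2(RPKM + 1) scale, choices added after seeing the data. The cause of these differences was not tested. Slc25a41 held 6 and 3 reads in the knockout libraries, which limits the precision of its fold.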
